A study of Mus musculus with 2 samples.

Results

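Levels of 10 genes of the LIM homeodomain network were measured in total RNA from the embryonic mouse forebrain: the transcription factor genes Lhx1, Lhx2, Lhx5, Lhx6, Lhx8, Lhx9, Isl1 and Lmx1a, the cofactor gene Ldb1 and the LIM-only gene Lmo4. The 10 genes were chosen by name, out of 43346 annotated genes in the tables, to set a progenitor factor (Lhx2) beside dorsal midline, diencephalic and neuronal factors of the same family. The study sequenced 2 libraries of 1 group, prepared from 10 ng of forebrain RNA pooled over embryos of day 10.5. The embryos were healthy B6NCrl mice of both sexes with no allele or treatment named, and the pools held 69 embryos (replicate 1) and 51 embryos (replicate 2). The labels call the libraries biological replicates and give both the same donor record. No second condition exists, so the comparisons are between genes within a library, each set against the SD over the 2 libraries. A sign-flip permutation test over 2 libraries cannot go below a two-sided p of 0.5, and no p-value is given.

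LIM homeodomain proteins bind DNA through the homeodomain, while their paired LIM domains bind Ldb1. Ldb1 binds to itself, and so links LIM homeodomain proteins with each other and with other DNA-binding complexes. LIM-only proteins such as Lmo4 carry LIM domains without a homeodomain and compete for Ldb1, the Ssbp proteins bind and stabilise Ldb1, and Rlim is a ubiquitin ligase that targets Ldb1 and LIM proteins for degradation. In the developing forebrain Lhx2 is known for cortical progenitor identity and for the early eye, Lmx1a for the roof plate and the cortical hem, Lhx1, Lhx5 and Lhx9 for diencephalic regions and some early neurons, Lhx6 and Lhx8 for ventral telencephalic neurons, and Isl1 for striatal, hypothalamic, retinal and sensory neurons.

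The libraries held 43021202 (replicate 1) and 39215064 (replicate 2) expected counts, of which 41537304 and 38012457 were assigned to annotated genes. Levels are given as TPM, each transcript's length-adjusted share of the library, which can be compared between genes. All 8 telencephalic progenitor markers were detected in both libraries, led by Hes5, Nr2e1 and Pax6. The pools differed in several marker lists. All 8 eye markers were higher in replicate 2 and all 10 neuronal markers, 6 markers of first-born cortical neurons and 6 red cell markers were higher in replicate 1. In such bulk samples fewer cells of a type and less RNA per cell cannot be told apart.

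All 10 members were detected at 1 TPM or more in both libraries, against 57.3% of annotated protein-coding genes. The members were chosen with earlier results of these data known, so the 2 shares are not a test of the family. Its genes Lhx3 (0.24 and 0.19 TPM), Lhx4 (0.01 and 0.06 TPM) and Isl2 (0.89 TPM in both), not among the members, were below this limit. The members' mean levels spanned a wide range, from Lhx2 at the 86.4th percentile of the 14032 detected genes to Lhx1 at percentile 5.86. By mean TPM the order was Lhx2, Ldb1, Lmo4, Lhx5, Isl1, Lhx9, Lmx1a, Lhx8, Lhx6 and Lhx1. Neighbours in this order were separated in both libraries as far down as Isl1 over Lhx9, and Lmx1a was above Lhx8. The ranges of Lhx9 and Lmx1a overlapped, as did those of Lhx8 and Lhx6 and those of Lhx6 and Lhx1.

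**Figure D1:**
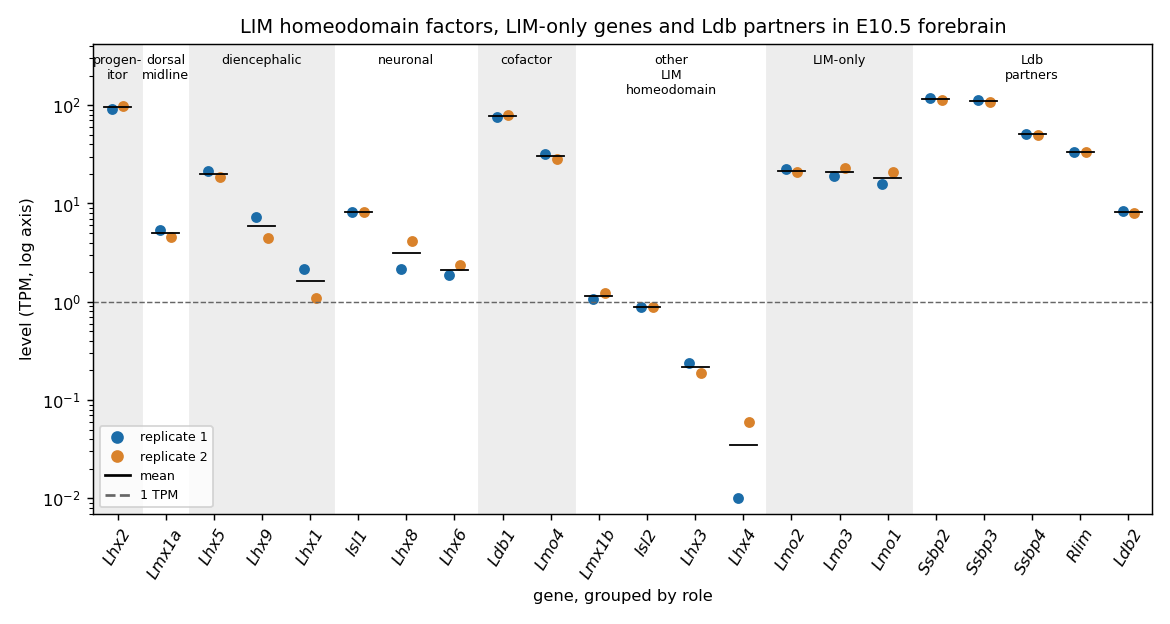
Deposited TPM (log axis) of the 10 members and of the other genes of the family and its complexes, 1 point per library and a line at the mean, with genes ordered by role and the dashed line at 1 TPM. Lhx2 (91.69 and 98.32 TPM) and Ldb1 (75.83 and 79.63 TPM) stand above every other member, and Lhx1 (2.17 and 1.10 TPM) is the lowest on average.

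Lhx2, the progenitor factor, lies on chromosome 2 at 38339281 to 38369733 (plus strand, GRCm38). It measured 91.69 TPM in replicate 1 and 98.32 TPM in replicate 2, a mean of 95.00 ± 4.69 TPM (SD, n = 2), on 5276 and 4860 expected counts. The libraries lay close together, and no other member reached this level in either of them. Lhx2 made up 64.3% and 68.2% of the summed TPM of the 12 LIM homeodomain genes of the mouse (66.3% ± 2.72), which came to 142.5 and 144.2 TPM. Thus the summed level of the family differed little between the pools (143.4 ± 1.19 TPM).

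Lmx1a, the dorsal midline factor (chromosome 1, 167689237 to 167848741, plus strand), measured 5.37 and 4.58 TPM (mean 4.975 ± 0.559, SD, n = 2). Its paralog Lmx1b was lower in both libraries, at 1.06 and 1.24 TPM. The log2 difference of Lmx1a over Lmx1b was 2.24 and 1.80 (mean 2.02 ± 0.31), a 4.06-fold higher level. Lmx1a is also known from the ventral midbrain, so that region's markers are given beside it. Of 7 midbrain floor plate markers 2 were detected, and the list summed to 11.32 and 10.16 TPM, most of it Nr4a2 (6.57 and 6.31 TPM), a nuclear receptor of dopamine neurons. Shh, a signal of the floor plate and also of the ventral forebrain, measured 2.04 and 2.37 TPM, and Foxa2, a defining floor plate factor, was at 0.57 and 0.14 TPM. The dorsal midline and hem list summed to 366.6 and 360.9 TPM, and 9 of its 12 genes were detected. It was led by Msx1 (149.06 and 164.17 TPM), a homeodomain factor downstream of BMP signalling. Its undetected genes were Gdf7 (0.06 and 0.09 TPM), Wnt2b (0.55 and 0.5 TPM) and Ttr (0.52 and 0.21 TPM). The lists differ in their number of genes, so the sums cannot be compared directly. Which tissue gave the Lmx1a level was not tested.

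Among the diencephalic members, Lhx5 stood far above Lhx1 and Lhx9. Lhx5 (chromosome 5, 120431699 to 120441223, plus strand) measured 21.59 and 18.73 TPM (mean 20.16 ± 2.02, SD, n = 2). Lhx1 (chromosome 11, 84518284 to 84525535, minus strand), its closest relative, measured 2.17 and 1.10 TPM (mean 1.635 ± 0.757), on 196 and 103 counts. The log2 difference of Lhx5 over Lhx1 was 3.26 and 3.97 (mean 3.61 ± 0.51, 12.2-fold), larger than its spread. Lhx9 (chromosome 1, 138825186 to 138848577, minus strand) measured 7.34 and 4.47 TPM (mean 5.905 ± 2.03). Lhx2, the paralog of Lhx9, was 16.3-fold higher, with log2 differences of 3.62 and 4.43 (mean 4.03 ± 0.57). Replicate 1 held the higher level of all 3 diencephalic members. Lhx5 alone gave 15.1% and 13.0% of the summed TPM of the 12 genes, so Lhx2 and Lhx5 together held most of it.

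The neuronal members were Isl1, Lhx6 and Lhx8. Isl1 (chromosome 13, 116298281 to 116309689, minus strand) was the highest of the 3, at 8.10 and 8.15 TPM (mean 8.125 ± 0.0354, SD, n = 2). Its levels were nearly identical in the 2 pools. Its paralog Isl2, known from motor and sensory neurons, was at 0.89 TPM in both libraries, on 43 and 37 counts. Isl1 was 8.31-fold higher (log2 difference 3.05 ± 0.0062). The size of this difference depends on the units by more than that SD. It was 2.62 by posterior mean TPM, 2.27 with a pseudocount of 1, 3.18 with a pseudocount of 0.01 and 3.34 on counts not divided by length. Isl1 is also made by cranial sensory ganglia, whose list had 2 of 7 measured genes detected and summed to 18.55 and 14.42 TPM, most of it Neurog1 (15.91 and 11.67 TPM), a proneural factor also used in the cortex. The sensory neuron factor Pou4f1 measured 1.25 and 1.37 TPM and the glial and crest factor Sox10 0.80 and 0.86 TPM. Of the other ganglion genes, Prph measured 0.16 and 0.17 TPM and Tlx3 was listed at 0 in both libraries.

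Lhx6 (chromosome 2, 36081953 to 36105408, minus strand), a factor of migrating ventral interneurons, measured 1.88 and 2.36 TPM (mean 2.120 ± 0.339, SD, n = 2), on 131 and 164 counts. Lhx8 (chromosome 3, 154306294 to 154330659, minus strand), a factor of basal forebrain cholinergic neurons, measured 2.18 and 4.11 TPM (mean 3.145 ± 1.36), on 100 and 165 counts. Both were lower in replicate 1. The log2 difference of Lhx8 over Lhx6 was 0.20 and 0.78 (mean 0.49 ± 0.40), a little larger than its spread, although the ranges of TPM over the libraries overlapped. On counts that are not divided by length, the mean difference had the opposite sign (-0.18). Both genes are also known from the first pharyngeal arch. The facial and arch mesenchyme list summed to 97.05 and 105.4 TPM with 4 of its 7 genes detected, led by Alx1, a homeodomain factor of the frontonasal mesenchyme, at 55.21 and 63.14 TPM. Barx1, an arch factor, measured 0.56 and 1.14 TPM, and Hand2, a defining arch factor, was listed at 0 in both libraries. What part mesenchyme had in the Lhx6 and Lhx8 levels was not tested.

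The contrast between roles used the mean log2(TPM + 0.1) of the genes in each: Lmx1a for dorsal midline, Lhx1, Lhx5 and Lhx9 for diencephalic, and Isl1, Lhx6 and Lhx8 for neuronal. Lhx2 was 18.8-fold above the dorsal midline role (log2 difference 4.07 and 4.39, mean 4.23 ± 0.23, SD, n = 2). It was 16.4-fold above the diencephalic role (3.68 and 4.39, mean 4.04 ± 0.50). It was 24.8-fold above the neuronal role (4.78 and 4.48, mean 4.63 ± 0.21). These 3 differences were several times their spread in both libraries. The 3 lesser roles could not be ordered: dorsal midline over diencephalic was -0.20 ± 0.27, dorsal midline over neuronal 0.40 ± 0.44 and diencephalic over neuronal 0.60 ± 0.71, each smaller than its spread. With the genes of a role summed instead of averaged, Lhx2 was above the diencephalic role by 1.78 and above the neuronal role by 2.82 on the log2 scale, differences that are smaller by construction since each role sums 3 genes. Lhx5 is also known from the cortical hem, and with Lhx5 moved to the dorsal midline role Lhx2 stood above that role by 3.23.

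**Figure D2:**
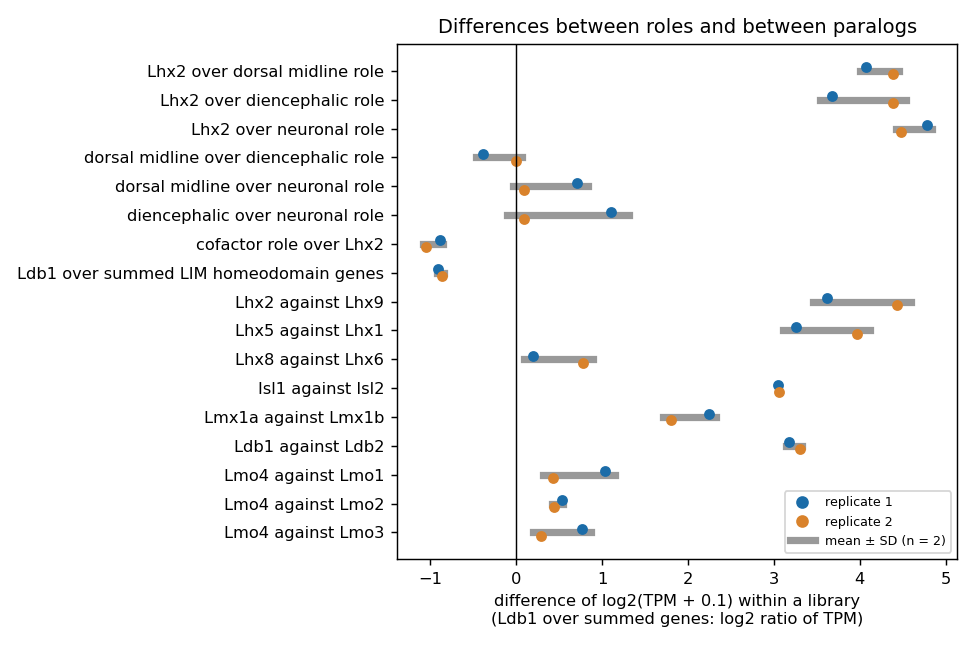
Log2 differences between roles and between paralogs within each library (points, 1 per library; grey bar, mean ± SD). The 3 differences of Lhx2 over the lesser roles lie between 3.68 and 4.78, while the differences among the lesser roles lie between -0.39 and 1.10.

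The cofactor Ldb1 was near Lhx2 in level. Ldb1 (chromosome 19, 46031570 to 46045214, minus strand) measured 75.83 and 79.63 TPM (mean 77.73 ± 2.69, SD, n = 2), on 3716 and 3547 counts. Its paralog Ldb2 measured 8.35 and 8.01 TPM, so Ldb1 was 9.40-fold higher (log2 difference 3.17 and 3.30, mean 3.23 ± 0.092) and gave 90.1% and 90.9% of the summed Ldb1 and Ldb2 TPM. Set against the summed TPM of the 12 LIM homeodomain genes, Ldb1 was 1.84-fold lower (log2 difference -0.91 and -0.86, mean -0.88 ± 0.038). Of the Ssbp partners of Ldb1, Ssbp2 and Ssbp3 exceeded Ldb1 at 118.84 and 113.0 TPM and at 113.69 and 108.98 TPM, and Ssbp4 measured 50.8 and 50.29 TPM. Rlim, the ubiquitin ligase, measured 33.34 and 33.6 TPM.

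Lmo4 (chromosome 3, 144188530 to 144205220, minus strand) measured 32.22 and 28.07 TPM (mean 30.14 ± 2.93, SD, n = 2), on 1275 and 1011 counts. It was the highest of the 4 LIM-only genes in both libraries, but by a modest margin: the mean log2 difference was 0.48 ± 0.062 over Lmo2, 0.53 ± 0.34 over Lmo3 and 0.73 ± 0.42 over Lmo1. Lmo4 therefore made up 36.1% and 30.3% of the summed LIM-only TPM, which came to 89.17 and 92.49 TPM. Averaged on the log2 scale, Ldb1 and Lmo4 together were 1.96-fold below Lhx2 (log2 difference -0.97 ± 0.12). Summed, they were above Lhx2 by 0.18 on the log2 scale, so the direction of that comparison depends on how the 2 genes are combined.

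Of the other 17 genes of the family and its complexes, Lhx3 and Lhx4, known from the pituitary and from motor neurons, were the lowest. Lhx3 measured 0.24 and 0.19 TPM on 14 and 9 counts, and Lhx4 had 1 and 2 counts. The first-named gene was higher in both libraries in 9 of 9 paralog pairs by TPM (Lhx2 over Lhx9, Lhx5 over Lhx1, Lhx8 over Lhx6, Isl1 over Isl2, Lmx1a over Lmx1b, Ldb1 over Ldb2, and Lmo4 over Lmo1, Lmo2 and Lmo3). On counts not divided by length this held for 7 of 9 pairs, with Lmo4 below Lmo3 in replicate 2 (1011 and 1108 counts). Which gene is named first was set by hand, and Lmo4 enters several pairs. The members were chosen with earlier results of these data known, so these counts describe the pairs and test nothing. Ldb1 and Lmo2 also form a complex in blood precursors with Tal1, Lyl1, Gata1, Gata2 and Cbfa2t3. Tal1 measured 1.83 and 1.32 TPM, Gata1 6.76 and 5.6 TPM and Gata2 7.95 and 9.31 TPM. Lmo2 measured 22.36 and 20.7 TPM. The red cell list summed to 17376 and 12868 TPM, led by the embryonic globin gene Hbb-y, and its part in the Lmo2 and Ldb1 levels was not tested.

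The transcript tables split each gene's TPM over its annotated transcripts, in percent. Lhx5 has a single transcript. Of the other 9 members, 8 had the same leading transcript in both libraries and 5 had a leading transcript over 50% in both. Because transcripts of a gene share most of their reads, the shares are estimates, and for Lhx1, Lhx6 and Lhx8 they rest on 100 to 196 counts a library. Transcript names are those of GENCODE M21, which holds 50 of the 54 deposited transcripts of the members, 46 of them at the same length.

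The Lhx9 transcripts differ in the homeodomain itself. Lhx9-202 (388 codons) held 38.66% and 30.97% of Lhx9 TPM and Lhx9-201 (330 codons) held 35.23% and 28.78%, so Lhx9-202 led in both libraries by a small margin. Their coding sequences part within the homeodomain, as shown by the 60 coding bases around the junction (bases 887 to 946 of Lhx9-202 and 914 to 973 of Lhx9-201, 5′ to 3′, from the GENCODE M21 transcripts), with the bases after the split in capitals.
Lhx9-202: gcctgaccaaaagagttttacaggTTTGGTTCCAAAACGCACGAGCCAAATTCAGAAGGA
Lhx9-201: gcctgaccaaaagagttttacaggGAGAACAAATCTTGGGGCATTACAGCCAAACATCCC
After the shared bases, Lhx9-202 continues with the codons of the last homeodomain helix, the part that contacts DNA (tryptophan, phenylalanine, glutamine and asparagine, the last at the position that reads the core of the site), and Lhx9-201 continues with other codons. These 4 codons begin at codon 305 of Lhx9-202 and at codon 314 of Lhx9-204 (15.56% and 9.21%), and were not found in frame in Lhx9-201. Transcripts with them carried 54.22% of Lhx9 TPM in replicate 1 and 40.18% in replicate 2. A transcript annotated for nonsense-mediated decay, Lhx9-207, took 3.45% and 21.8%, on 6.72 and 23.29 counts.

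For the other LIM homeodomain members the same 4 codons were in most of the TPM. The share was 100% in both libraries for Lhx5, Lmx1a and Lhx1 (for Lhx1, Lhx1-201 and Lhx1-204 held 68.23% and 17.0% in replicate 1 and 63.33% and 9.6% in replicate 2 by posterior mean TPM, so its share is lower there), 97.93% and 84.06% for Isl1, 71.31% and 68.16% for Lhx2, and 72.66% and 80.69% for Lhx6. It was 80.87% and 51.15% for Lhx8, whose other deposited transcripts could not be matched to GENCODE M21. In Lhx2 the full-length Lhx2-201 (406 codons) held 66.25% and 61.15%. Lhx2-202, a transcript of 192 codons whose coding end is not annotated, held 21.69% and 27.0% of the TPM but only 305.46 and 367.61 of the counts, since short transcripts gain weight in TPM. The 4 codons could not be looked for past its annotated end, so the Lhx2 share given above is a lower bound. Lhx2-203 (365 codons), which lacks the first 123 coding bases of Lhx2-201, held 5.06% and 7.01%.

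Ldb1 was split between transcripts that differ by 6 coding bases. Ldb1-201 (375 codons) held 43.87% and 41.9% of Ldb1 TPM (42.88% ± 1.39, SD, n = 2), and Ldb1-206 (373 codons) held 31.2% and 38.09% (34.65% ± 4.87). Coding bases 869 to 922 of Ldb1-201 and 869 to 916 of Ldb1-206 (5′ to 3′, GENCODE M21) show the place, with the bases that only Ldb1-201 has in capitals.
Ldb1-201: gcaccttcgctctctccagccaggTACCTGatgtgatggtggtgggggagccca
Ldb1-206: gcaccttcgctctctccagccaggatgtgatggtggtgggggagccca
By TPM Ldb1-201, the form with the longer coding sequence, led in both libraries, by a margin that was wider in replicate 1. By counts Ldb1-206, the longer transcript (2108 against 1718 bases), was ahead in replicate 2 (1520.33 against 1347.6). Ldb1-205 (319 codons) held a further 16.02% and 15.07%, so 3 coding forms made up most of the cofactor transcript pool.

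Lmo4 was made from separate first exons. Lmo4-201 held 48.37% and 53.83% of Lmo4 TPM and Lmo4-203 held 40.18% and 34.69%, and both code for 165 codons. Lmo4-201 was the higher in both libraries. The 250 bases before each start are shown 5′ to 3′ on the minus strand (RefSeq starts, GRCm38.p6), with CG dinucleotides in capitals. The first window is chr3:144205256-144205505, before the start of Lmo4-201, and the second is chr3:144202397-144202646, before the start of Lmo4-203 and inside the first intron of Lmo4-201.
Lmo4-201 upstream: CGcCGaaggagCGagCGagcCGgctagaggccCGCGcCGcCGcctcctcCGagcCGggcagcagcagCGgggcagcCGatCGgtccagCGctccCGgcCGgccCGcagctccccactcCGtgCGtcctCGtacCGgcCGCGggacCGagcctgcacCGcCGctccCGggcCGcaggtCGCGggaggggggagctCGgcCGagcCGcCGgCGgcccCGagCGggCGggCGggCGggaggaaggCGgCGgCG
Lmo4-203 upstream: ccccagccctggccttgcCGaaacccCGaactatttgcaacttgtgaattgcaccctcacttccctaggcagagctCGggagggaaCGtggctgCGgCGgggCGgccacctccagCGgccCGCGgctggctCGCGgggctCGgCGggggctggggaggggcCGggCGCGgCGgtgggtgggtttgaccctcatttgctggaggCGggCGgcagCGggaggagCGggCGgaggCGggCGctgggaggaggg
The first window holds 44 CG dinucleotides at 82.40% G and C, and the second 25 at 73.60%. Both windows are rich in CG, the outer one more so. The letters TAATTA, a core motif of homeodomain sites that reads the same on both strands, occurred in 0 of the 16 windows of 300 bases (250 before to 50 after a start) that RefSeq gives for 9 members, and in 5.291% of all 32851 such windows. Lhx5 has no window in that table. Some of the 16 windows overlap, at Lmo4. With so few windows a count of 0 cannot be told apart from the share over all windows.

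Other transcript shares differed more between the pools. Lmx1a-201 held 57.16% and 100%, with Lmx1a-202 at 42.84% and 0%, and both have 382 codons. Isl1-201 (349 codons) held 72.27% and 77.68%, while Isl1-202 (326 codons) held 25.66% and 6.38%. Lhx6 was the member with another leading transcript in each library: Lhx6-204 (348 codons) held 42.28% and 6.8%, and Lhx6-201 (392 codons) held 26.66% and 58.1%, on 131 and 164 counts of the gene. By the deposited posterior mean TPM, a second estimate, Lhx6-204 held 20.99% and 10.48% and Lhx6-201 10.92% and 20.6%, so the size of these shares depends on the estimate.

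**Figure D3:**
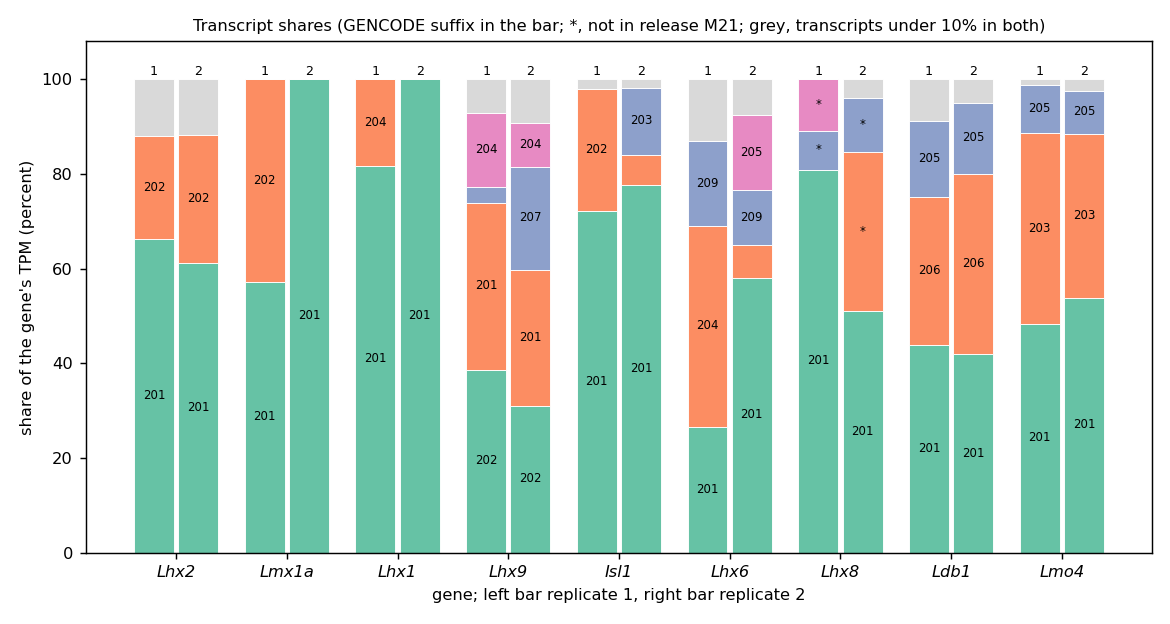
Share of each member's TPM in its transcripts (percent, stacked bars, left replicate 1 and right replicate 2), for the 9 members with several transcripts. Ldb1, Lmo4 and Lhx2 keep a like split in both libraries, while Lhx6 is led by Lhx6-204 (42.28%) in replicate 1 and by Lhx6-201 (58.1%) in replicate 2.

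The 2 pools were then compared gene by gene, as the log2 ratio of counts of replicate 2 over replicate 1 after TMM scaling, a scaling that assumes that most genes do not differ. No member passed 2-fold (0 of 10), against 0.585% of the 13842 genes whose mean count reached 50. Beyond 1.5-fold lay 3 of 10 members, against 2.93% of those genes. The median size of the log2 ratio was 0.216 over the members and 0.0841 over all genes, and 4 members were higher in replicate 2 and 6 in replicate 1. Each ratio is set beside a 95% exact interval, which covers counting error only, and beside the robust spread of genes of like count in the same libraries.

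By counts Lhx9 differed most, with 720 and 340 counts, 1.93-fold higher in replicate 1 (log2 ratio -0.95, interval -1.14 to -0.76). That is 5.60 times the spread of 0.169 among genes of like count, and the authors' deposited TPM intervals, whose level is not stated, did not overlap (6.83 to 8.57 and 3.97 to 5.58 TPM). As a log2 ratio of TPM, Lhx9 was at -0.70, Lhx1 at -0.92 and Lhx8 at 0.88, so by TPM Lhx9 did not differ most. Lhx1 was 1.73-fold higher in replicate 1 (log2 ratio -0.79, interval -1.15 to -0.44, 2.64 spreads), and its deposited TPM intervals overlapped (1.93 to 3.18 and 1.09 to 2.22 TPM). Lhx8 went the other way, 1.81-fold higher in replicate 2 (log2 ratio 0.86, interval 0.49 to 1.23, 2.55 spreads), with deposited intervals of 1.88 to 2.94 and 3.62 to 5.21 TPM. Lhx5 was 1.16-fold higher in replicate 1 (log2 ratio -0.22, 2.09 spreads). These 4 members exceeded 2 spreads. The share of all genes past 2 spreads was not calculated, so this count is not set against a background. Lmo4 (-0.20, 1.66 spreads), Lmx1a (-0.21, 1.16 spreads) and Lhx6 (0.46, 1.54 spreads) lay between 1 and 2 spreads. Lhx2 (0.02), Isl1 (-0.01) and Ldb1 (0.07) were within 1 spread.

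**Figure D4:**
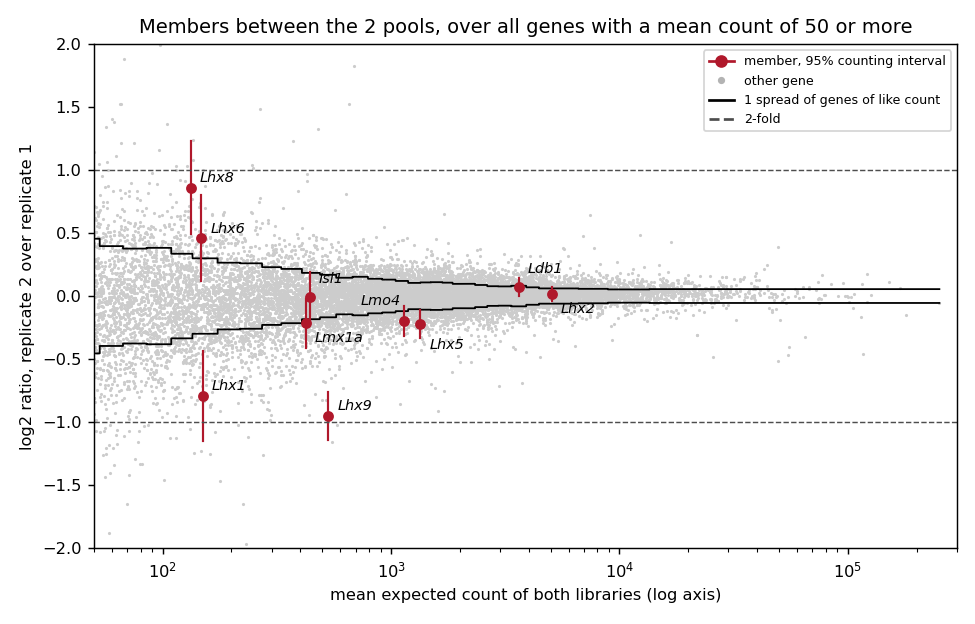
Log2 ratio of replicate 2 over replicate 1 against the mean expected count (log axis) for the 10 members (red, with 95% counting intervals) and all 13842 genes whose mean count reached 50 (grey; 8 genes beyond 2 on the log2 scale are outside the axis). Lhx9 (-0.95), Lhx1 (-0.79) and Lhx8 (0.86) lie outside the lines that mark 1 spread of genes of like count, and Lhx2 (0.02) lies between them.

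Genes close to the members had the following counts. Lhx1os, a long noncoding RNA gene that starts 125 bases from Lhx1 on the opposite strand, had 66 and 21 counts (log2 ratio -1.49, interval -2.30 to -0.79), lower in replicate 2 as Lhx1 was. AI606473, 162 bases from Lhx8 on the opposite strand, had 30 and 54 counts (log2 ratio 0.97, interval 0.31 to 1.68), higher in replicate 2 as Lhx8 was. Gm27199 overlaps Lhx5 by 69 bases on the opposite strand and had 105 and 77 counts (log2 ratio -0.31, interval -0.75 to 0.13). The sources used here do not say whether counting used the strand. Lhx2 also overlaps its antisense genes Gm27197 (35 and 26 counts) and Gm13584 (3 and 5 counts), and Ldb1 shares 329 bases with Pprc1. The expected counts of all 10 members were whole numbers in both libraries, so no fractional division of reads with these genes shows. How reads in the shared bases were assigned was not tested. Pprc1, a coactivator gene, measured 5162 and 4952 counts.

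The members' ratios can be read beside the marker lists of the regions and cell types that hold them. For the diencephalic members, 6 of 8 diencephalon markers were higher in replicate 1, with a median log2 ratio of -0.08 (range -1.97 to 0.40) and a summed level of 126.3 and 113.1 TPM. The leading marker Tcf7l2, a thalamic Wnt effector, had a ratio of -0.05, while Olig3, a progenitor factor of the caudal diencephalon, had the lowest ratio of the list with 375 and 87 counts (-1.97). The neuronal list was higher in replicate 1 in 10 of 10 genes (median -0.44), led by Tubb3 at 220.95 and 175.13 TPM. First-born cortical neuron markers were higher in replicate 1 in 6 of 6 genes (median -0.53), among them Tbr1 (-0.98). Thus Lhx1, Lhx5 and Lhx9 were lower in the pool in which neuronal markers were lower, and the part of neurons or of diencephalic tissue in this was not tested.

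The neuronal members did not share the direction of the neuronal list. Isl1 was level between pools (-0.01), and Lhx6 and Lhx8 were higher in replicate 2. The subpallial list was higher in replicate 2 in 6 of 8 genes (median 0.12, range -0.48 to 0.31), with Dlx1 at 0.00, Dlx5 at -0.07 and Dlx2 at 0.19. The facial and arch mesenchyme list was higher in replicate 2 in 4 of 6 genes with 10 counts or more (median 0.28, range -0.62 to 1.01). The Lhx8 ratio of 0.86 was above every gene of the subpallial list and below Barx1 of the arch list (1.01). The part of either tissue in the Lhx8 ratio was not tested.

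Lhx2 and Ldb1 were level between the pools, and the eye markers differed widely. The eye list, a tissue in which Lhx2 is also made, was higher in replicate 2 in 8 of 8 genes (median 1.12, range 0.40 to 1.88), from a summed 22.24 to 52.69 TPM. Pmel, a pigment cell gene, measured 5.82 and 20.8 TPM, and Rax, an eye field and hypothalamic factor, measured 3.47 and 9.79 TPM. The telencephalic progenitor list had a median of -0.04, near the Lhx2 ratio of 0.02. For Lmx1a (-0.21), the dorsal midline and hem list had a median of -0.18 (range -1.21 to 0.23), with 7 of 11 genes higher in replicate 1. Its leading genes differed in direction, with Msx1 at 0.13 and the Wnt agonists Rspo3 at -0.25 and Rspo1 at -0.20.

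**Figure D5:**
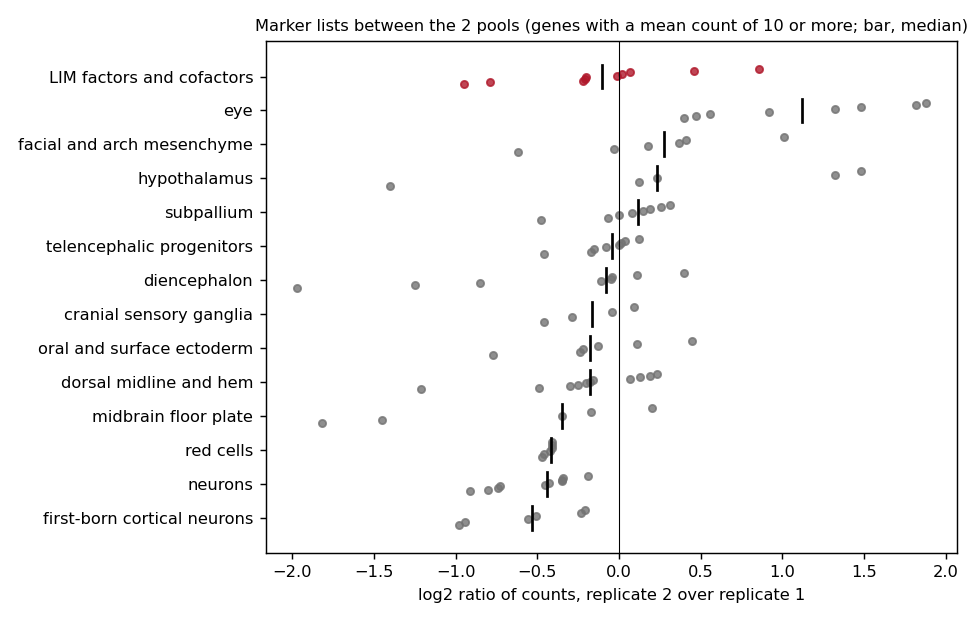
Log2 ratio of replicate 2 over replicate 1 for each gene of 13 marker lists and for the 10 members (points, genes whose mean count reached 10; bar, list median). The members spread from -0.95 to 0.86 around a median of -0.10, while all eye markers lie above 0 and all neuronal, first-born neuron and red cell markers lie below 0.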

How the data were processed

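Total RNA of the 2 pooled forebrain samples was extracted with the mirVana method and carries spike-ins, per the labels' protocols. The deposited notes name the assembly mm10, annotation M4 and transcriptome alignments as the source of the tables. Aligner, quantification tool, priming and strand setting were not given in the sources used here. Values deposited by the authors were expected counts (estimated reads per gene, not normalized), TPM over all 69691 rows including controls (7.828% and 7.014% of TPM), a posterior mean TPM with interval bounds, and transcript shares in percent, per the file headers.

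The members and all lists were chosen with earlier results of these data known. Levels are deposited TPM, and contrasts are differences of log2(TPM + 0.1) within a library. Ratios between libraries used expected counts on annotated genes, with a prior of 0.5 and TMM factors of 1.003 and 0.9972 from edgeR 4.0.16 in R 4.3.3 on counts rounded to whole numbers (16637 genes at 10 counts or above in both). Intervals are exact binomial at 95%. The spread is 1.4826 times the median absolute deviation of the log2 ratio within 40 bins of genes by count. On simulated counts for 13848 genes, 100 of 100 genes changed 3-fold, 100 of 100 changed 8-fold and 0 of 13648 unchanged genes passed the 2-fold limit. The changed genes were drawn from those of higher count, and 0.585% of the 13842 real genes passed that limit. The simulation therefore checks the calculation only and gives no error rate for these libraries. Python 3.11.15 with pandas 2.3.3, numpy 2.4.6 and scipy 1.17.1 was used, with DESeq2 1.42.0 for other factors.

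Named genes were the 10 members, 17 genes of the family and its complexes, genes overlapping or within 1000 bases of a member, and up to 3 markers of highest mean TPM per list with those at 0. Barx1, Foxa2, Gdf7, Olig3, Prph, Ttr and Wnt2b were named after their values were seen. The gene name table paired 42462 identifiers with symbols; 884 identifiers, with 0.252% and 0.260% of the counts, stayed unnamed, and the marker gene Drgx was not matched. Coordinates (1-based) follow GENCODE M21 on GRCm38 (mm10). Other units, pseudocounts, role assignments, scalings and limits were tried, and transcript shares from the posterior mean TPM were added after seeing the data.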

Additional observations from a re-analysis of the deposited data

How the results depend on the processing

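No paired analysis was possible because both libraries belong to a single group. Leaving out either replicate leaves a single library, whose value cannot leave the spread of 2, so it says nothing about stability. Length correction bears on the contrasts: on expected counts as CPM, which are not divided by length, Lhx2 over the dorsal midline role was 3.58, Lhx2 over the diencephalic role 3.46, dorsal midline over neuronal 1.03, the cofactor role over Lhx2 -1.32, Ldb1 over the summed LIM homeodomain genes -1.21, and Lhx8 against Lhx6 reversed to -0.18. With posterior mean TPM, Ldb1 over the summed genes was -0.92, and with a pseudocount of 1, Lhx2 over the neuronal role was 4.30; the cause was not tested. With summed TPM of the role, which grows with the number of genes in it, Lhx2 over diencephalic was 1.78, Lhx2 over neuronal 2.82, dorsal midline over diencephalic -2.45 and dorsal midline over neuronal -1.41, and the cofactor role over Lhx2 reversed to 0.18. With Lhx5 in the dorsal midline role, Lhx2 over dorsal midline was 3.23, Lhx2 over diencephalic 4.94, dorsal midline over diencephalic 1.70, dorsal midline over neuronal 1.40 and diencephalic over neuronal -0.30. With Lhx1 and Lhx5 in the neuronal role, Lhx2 over neuronal was 4.40. At a limit of 5 TPM, 5 members were detected. Scaling by spike-in counts moved the median log2 ratio of all genes to 0.1691 and put 1 member past 2-fold, and 3 members were past a 1.5-fold limit. Posterior mean TPM moved the level of 2 of 10 members by more than the SD, and rescaling TPM over annotated genes moved that of 3 of 10. Transcript shares from the posterior mean TPM moved the mean leading share of 3 of 9 members by more than its SD (Lhx6 from 42.38% to 15.76%, Lhx1 from 90.87% to 65.78%, Isl1 from 74.97% to 66.67%). On counts as CPM, the first-named gene was higher in both libraries in 7 of 9 paralog pairs. Lhx1, Lhx6 and Lhx8 rest on 100 to 196 counts a library, which limits the precision of their ratios and shares.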
